A study of Homo sapiens with 6 samples.

Results

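The E2F transcription factors and the pocket proteins that bind them were followed in T47D cells, an estrogen receptor-positive line of luminal human breast cancer, under low and normal oxygen. The 10 genes were taken by symbol from the gene counts: E2F1, E2F2, E2F3, E2F4, E2F5, E2F7, E2F8, RB1, RBL1 and RBL2. They are 10 of 27754 counted genes, and all 10 were among the 15657 genes with enough counts to be tested. Normoxia was 20% O2 in 3 libraries. Hypoxia was 0.5% O2 for 48 h in 3 libraries by their labels, while the text of the study gives a different oxygen level for this experiment. All cells were adherent cultures of this 1 line in RPMI medium with 10% fetal bovine serum, with no transgene and no drug. No label says whether the replicates came from separate cultures, so the p-values measure the spread between these libraries. The legend of the study's figure that shows this experiment states that its data come from independent experiments.

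E2F1, E2F2 and E2F3 are activators that switch on the genes for DNA synthesis as a cell passes from G1 into S phase. E2F4 and E2F5 act mainly as repressors in complex with a pocket protein, and E2F7 and E2F8, the atypical E2Fs, repress E2F targets later in the cycle without a pocket protein. RB1, the retinoblastoma protein, restrains the activators, whereas RBL1 (p107) and RBL2 (p130) join E2F4 or E2F5 and the MuvB core in the DREAM complex, which holds cell cycle genes silent in resting cells. Cyclin-dependent kinases release these brakes by phosphorylating the pocket proteins, a step that transcript counts do not show.

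The libraries held 32989104 to 89883409 counts, and 3 counts, taken as the detection floor, corresponded to 0.0334 to 0.0909 counts per 1000000 (CPM). Levels below are CPM after TMM scaling, and fold changes are hypoxia over normoxia from edgeR's quasi-likelihood test, with p-values adjusted by Benjamini-Hochberg over the 15657 genes. All 10 reference genes of the hypoxia response, VEGFA and CA9 among them, were higher in hypoxia, with a median log2 fold change of 2.86. Luminal markers were abundant in every library, summing to 15810 to 19784 CPM in normoxia and 11288 to 14366 CPM in hypoxia, and of their 12 genes 6 fell, 1 rose (TFF1) and 5 did not pass the test. Basal and mesenchymal markers summed to 93.4 to 129 CPM in normoxia and 229 to 295 CPM in hypoxia, 3 of the 9 tested rose, and 4 more (CAV2, KRT5, KRT14 and ZEB1) had too few counts to test. Stromal, endothelial and immune markers summed to 85.6 to 97.1 and 84.2 to 106 CPM, 2 of the 3 tested (of 12) rose, and PTPRC was at 0 counts in normoxia and 1 to 5 counts in hypoxia, with MS4A1 at 0 counts in all libraries. Beside these marker counts, 29.1% of all tested genes fell and 30.4% rose in hypoxia. Replicate 3 of both conditions stood apart in VIM. This gene had 395 raw counts in normoxia replicate 3 against 7 and 12 in the other normoxia libraries, and 1001 in hypoxia replicate 3 against 35 and 35. Normoxia replicate 3 held 32989104 counts and hypoxia replicate 3 held 89883409, so the 395 and 1001 raw counts do not show a rise in replicate 3. The other normoxia libraries held 40943424 and 37999713 counts, and the other hypoxia libraries 38580858 and 34640756. At these similar depths VIM went from 7 and 12 to 35 and 35 raw counts, but over all libraries it did not pass the test. Unlike VIM, the basal and mesenchymal sum was lowest in replicate 3 of each condition (93.4 and 229 CPM). The part of these marker shifts in the changes below was not tested. In bulk RNA, fewer cells in a given state and less transcript per cell cannot be told apart.

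Transcripts of 7 of the 10 genes fell in hypoxia (E2F1, E2F2, E2F3, E2F4, E2F8, RB1 and RBL1), where 29.1% of all tested genes fell. By edgeR's quasi-likelihood test 0 of the 10 rose, against 30.4% of all tested genes. The number that rose was also 0 at an unadjusted p under 0.05, by edgeR's exact test and by DESeq2. Only E2F1 and E2F2 fell by 1 or more on the log2 scale, as did 4.91% of tested genes. The median log2 fold change was -0.37 for the 10 genes and 0.03 for all tested genes. In 6 of them (E2F1, E2F2, E2F3, E2F4, RB1 and RBL1) every hypoxia library lay below every normoxia library, which held for 32.4% of tested genes. With a block for the replicate number, the same 7 fell, against 35.2% of tested genes, and 0 rose, against 36.6%. The scaling of the libraries bears on the small changes. With upper-quartile in place of TMM factors, the median of all genes moved up by 0.16, with 5972 genes higher and 3285 lower in place of 4765 and 4551. Under it E2F1, E2F2, E2F3 and RBL1 fell, while E2F4, E2F8 and RB1 missed the threshold and RBL2 rose with a log2 fold change of 0.25.

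**Figure D1:**
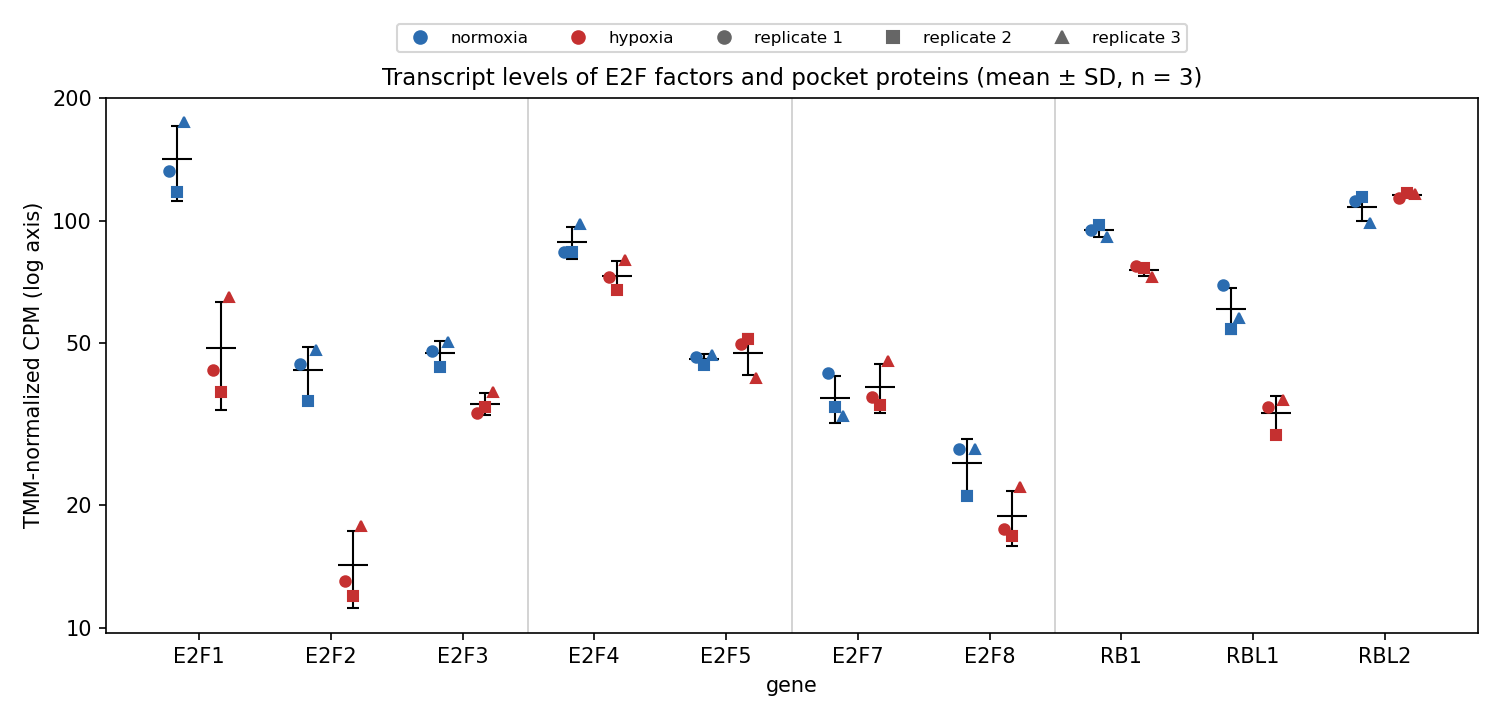
TMM-normalized CPM of each gene on a log axis, with 1 point per library (normoxia in blue, hypoxia in red, symbols for the replicate number) and bars for the mean ± SD of 3 libraries. E2F1 and E2F2 show the widest gap between conditions, RBL1 a narrower one, and the points of E2F5, E2F7, E2F8 and RBL2 overlap.

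The activators divided into a pair with a large change and a member with a small one. E2F1 lies at chr20:32263292-32274210 of GRCh37 on the minus strand, with 2700 bases of counted exons in 7 exons. It stood at 132, 117 and 174 CPM in normoxia replicates 1, 2 and 3 and at 42.9, 38.0 and 64.98 CPM in the hypoxia replicates. The highest hypoxia library was well below the lowest normoxia library, and replicate 3 was the highest of each condition. The mean went from 141 ± 29.6 to 48.6 ± 14.4 CPM (SD, n = 3), with a log2 fold change of -1.53 ± 0.22 (SE, adjusted p = 0.000847 by edgeR's quasi-likelihood test). Libraries with the same number differed by -1.62, -1.63 and -1.42. Of all tested genes, 1.21% had a log2 fold change as low as that of E2F1 or lower.

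E2F2 (chr1:23832920-23857712, minus strand, 7 counted exons) encodes a close relative of E2F1 with the same activating role. Its values were 44.5, 36.01 and 48.0 CPM in normoxia and 13.04, 11.9 and 17.7 CPM in hypoxia. The conditions were again far apart, and replicate 3 was the highest of each. The mean of 42.9 ± 6.18 CPM fell to 14.2 ± 3.07 CPM (SD, n = 3), with a log2 fold change of -1.58 ± 0.17 (SE, adjusted p = 0.000252 by edgeR). The CPM ratio of E2F2 to E2F1 per kilobase of exon was 0.175, 0.160 and 0.143 in normoxia and 0.158, 0.163 and 0.142 in hypoxia, values that overlap (exact two-sided permutation test on log2 ratios, p = 0.7). E2F2 shares 56 exon bases, 1.08% of its length, with LOC101928163 on the other strand, a gene with at most 2 counts in any library.

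E2F3 (chr6:20402137-20493945, plus strand, 9 counted exons) makes a long and a short form from separate starts, which these gene counts do not separate. It was at 47.8, 43.8 and 50.4 CPM in normoxia and at 33.6, 34.9 and 37.9 CPM in hypoxia. The ranges did not meet, although the gap was small. The log2 fold change was -0.41 ± 0.09 (SE, 95% interval -0.62 to -0.21, adjusted p = 0.00514 by edgeR), which left hypoxia at 75.1% of the normoxia mean, against 34.5% for E2F1 and 33.4% for E2F2. The ratio of E2F3 to E2F1 per kilobase rose from 0.189, 0.195 and 0.151 in the normoxia replicates to 0.410, 0.480 and 0.305 in hypoxia, with no overlap (exact two-sided permutation p = 0.1, the smallest that 3 against 3 libraries can give).

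Promoters of the 10 genes were searched for short words that E2F factors bind, here called E2F words. The letters around the matches are shown for every window of these genes that held one. Whether these words bear on the changes in hypoxia was not tested. RefSeq promoter windows of 300 bases (250 before and 50 after a gene start, GRCh38.p14) were searched on both strands for TTTCCCGC, TTTGGCGC, TTTCGCGC and TTTGCCGC. Of the 10 genes, 7 had a window in the table used here, and 4 of these 7 held an E2F word: E2F1, E2F2, E2F3 and RBL1. Among all genes with a window, tested or not, 3.87% of 26552 held one. Among the tested genes with a window, 671 held one and 10290 did not. The stretches read 5′ to 3′ on the strand of the gene, with each matched word in capitals:
E2F1, chr20:33686394-33686422, minus strand, bases -37 to -9 from the start: tttcGCGGCAAAaaggaTTTGGCGCgtaa
E2F2, chr1:23531260-23531283, minus strand, bases -50 to -27: gcacgacgTTTGGCGCtaaaaaaa
E2F3, first start, chr6:20401818-20401841, plus strand, bases -61 to -38: aaaagccgGCGGGAAAtccgagtt
RBL1, chr20:37096000-37096029, minus strand, bases -32 to -3: gcagatTTTCGCGCgcTTTGGCGCaggtgg
E2F1 and RBL1 each held 2 words, and TTTGGCGC was common to E2F1, E2F2 and RBL1. In E2F1 the word nearer the start lay on the strand of the gene and the other on the opposite strand, as did the single word of E2F3. All 6 matches lay within 60 bases upstream of the start. The windows of E2F4, E2F7 and RBL2 held none of these 4 words. A match describes letters and is not evidence of binding, and a window without one says nothing about the factor.

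**Figure D2:**
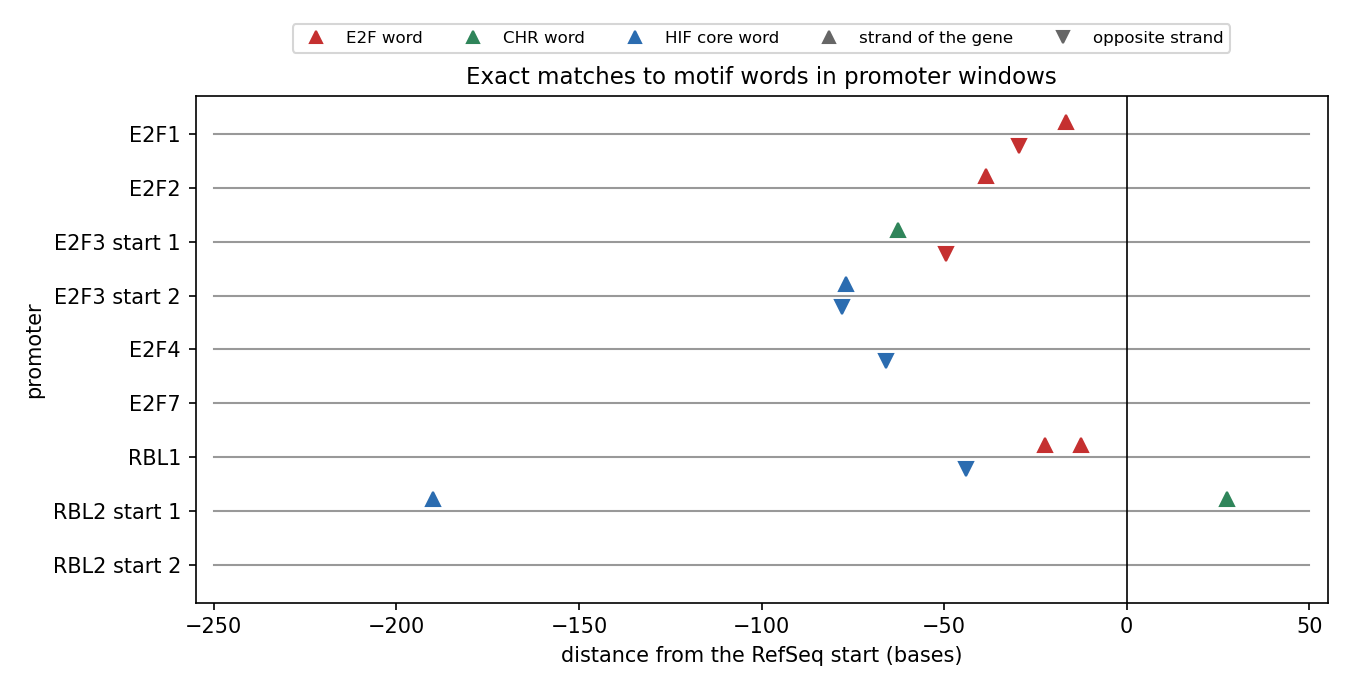
Exact matches to the E2F words, the CHR word and the HIF core words along each promoter window, in bases from the RefSeq start, with upward triangles for the strand of the gene and downward triangles for the opposite strand. E2F words cluster just upstream of the start in E2F1, E2F2, RBL1 and the first start of E2F3, and no other window holds one.

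Other motif words were searched in the same windows. The cell cycle genes homology region (CHR), the element that the MuvB core reads, was searched as TTTGAA. It was present in 14.8% of all 31514 windows, or 16.7% of the 26552 genes, and in 1 window each of E2F3 and RBL2. The core of the hypoxia response element, ACGTG or GCGTG, was present in 49.2% of all windows. By gene it was present in 51.4% of the 26552 genes and in 4 of the 7 genes (E2F3, E2F4, RBL1 and RBL2). In E2F3, 2 of the core matches were the same overlapping bases read on opposite strands. Across all 671 tested genes with an E2F word, 42.0% fell and 20.6% rose in hypoxia, with a median log2 fold change of -0.18. Of the 10290 tested genes with a window but no E2F word, 31.2% fell and 29.6% rose. The 671 genes include E2F1, E2F2, E2F3, RBL1 and those G1/S targets below that hold a word. The other words leaned the same way by less. With a HIF core word 33.4% fell and 27.9% rose, against 28.8% and 31.4% without one. With the CHR word 33.9% fell and 26.7% rose, against 31.6% and 29.3% without it.

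The repressor E2Fs changed little. E2F4 (chr16:67226068-67232821, plus strand, 10 counted exons) encodes the E2F most often bound to RBL1 and RBL2. It was at 83.6, 83.9 and 98.0 CPM in normoxia and at 72.5, 67.4 and 79.9 CPM in hypoxia. The ranges did not overlap, but the highest hypoxia value came close to the lowest in normoxia. The log2 fold change was -0.27 ± 0.10 (SE, 95% interval -0.50 to -0.04, adjusted p = 0.0446 by edgeR). Its call was lost without normoxia replicate 1 or 3 or hypoxia replicate 1 or 2 (adjusted p = 0.0612, 0.105, 0.119 and 0.141 by edgeR), in fits without the replicate block. It was kept with the block (adjusted p = 0.00231 by edgeR) and without both libraries numbered 3 (adjusted p = 0.00279 by edgeR).

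E2F5 (chr8:86089619-86126753, plus strand, 10 counted exons), the other pocket-bound repressor, did not pass the test. It was at 46.2, 44.3 and 46.6 CPM in normoxia and at 49.8, 51.1 and 41.0 CPM in hypoxia. Hypoxia replicate 3 was the lowest of the 6 libraries and hypoxia replicate 2 the highest, so the conditions overlapped. The log2 fold change was 0.05, with a 95% interval of -0.18 to 0.28 (adjusted p = 0.705 by edgeR). C8orf59, on the opposite strand, covers 466 bases (25.1%) of the counted exons of E2F5 and itself had a value of -0.07 on the log2 scale (adjusted p = 0.493 by edgeR). The libraries were stranded, but the strand setting of the counting is not given in the sources used here, so reads of the pair may not be separated.

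The atypical E2Fs differed from each other. E2F8 (chr11:19245610-19263202, minus strand, 15 counted exons) was at 27.5, 21.1 and 27.5 CPM in normoxia and at 17.5, 16.8 and 22.1 CPM in hypoxia. Hypoxia replicate 3 was above normoxia replicate 2, so the ranges overlapped, although each hypoxia library was below its normoxia library of the same number. The log2 fold change was -0.43 ± 0.15 (SE, 95% interval -0.77 to -0.08, adjusted p = 0.0384 by edgeR). As for E2F4, the call was lost without normoxia replicate 1 or 3 or hypoxia replicate 1 or 2 (adjusted p = 0.114, 0.0832, 0.119 and 0.118 by edgeR without the block). The replicate block gave an adjusted p of 0.00285, and leaving out both libraries numbered 3 gave 0.00138 (both by edgeR).

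E2F7 (chr12:77415026-77459360, minus strand, 13 counted exons) had 42.3, 34.8 and 33.1 CPM in normoxia and 36.8, 35.2 and 45.1 CPM in hypoxia. The conditions overlapped, and the same-numbered pairs went in different directions, with differences of -0.20, 0.02 and 0.45 on the log2 scale. The fitted log2 fold change was 0.09, with a 95% interval of -0.21 to 0.39 (adjusted p = 0.579 by edgeR), and without hypoxia replicate 3 it was -0.03. Relative to E2F7, E2F8 was lower in every hypoxia library: the ratio per kilobase was 0.942, 0.875 and 1.201 in normoxia and 0.688, 0.690 and 0.710 in hypoxia (exact two-sided permutation p = 0.1, the smallest possible).

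The pocket proteins fell into 3 different patterns, with RBL1 the most reduced. RBL1 (chr20:35624755-35724618, minus strand, 24 counted exons) was at 69.4, 54.3 and 57.8 CPM in normoxia and at 34.9, 29.8 and 36.3 CPM in hypoxia. No hypoxia library came near the normoxia range. The mean fell from 60.5 ± 7.93 to 33.7 ± 3.43 CPM (SD, n = 3), and the log2 fold change was -0.84 ± 0.12 (SE, adjusted p = 0.000787 by edgeR), and hypoxia was at 55.7% of normoxia.

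RB1 (chr13:48877883-49056026, plus strand, 27 counted exons) fell by a smaller amount with little spread. Its values were 94.98, 97.7 and 91.0 CPM in normoxia and 77.4, 76.4 and 72.8 CPM in hypoxia. The 3 same-numbered pairs differed by -0.30, -0.35 and -0.32 on the log2 scale, a narrow range in which replicate 3 did not stand out. The fitted log2 fold change was -0.32 ± 0.07 (SE, adjusted p = 0.00557 by edgeR). LPAR6 lies within the span of RB1 but shares no counted exon base with it.

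RBL2 (chr16:53468332-53525560, plus strand, 27 counted exons), the pocket protein most abundant in resting cells, did not pass the test. It was at 112, 114 and 98.6 CPM in normoxia and at 114, 117 and 116 CPM in hypoxia. Hypoxia replicate 1 lay below normoxia replicate 2, and normoxia replicate 3 was the lowest of all. The log2 fold change was 0.10, with a 95% interval of -0.09 to 0.28 (adjusted p = 0.322 by edgeR). AKTIP, on the other strand, shares 609 bases (12.1%) of the RBL2 exons and fell, with a log2 fold change of -0.29 ± 0.09 (SE, adjusted p = 0.0212 by edgeR), and the limit on strand given for E2F5 applies here too.

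**Figure D3:**
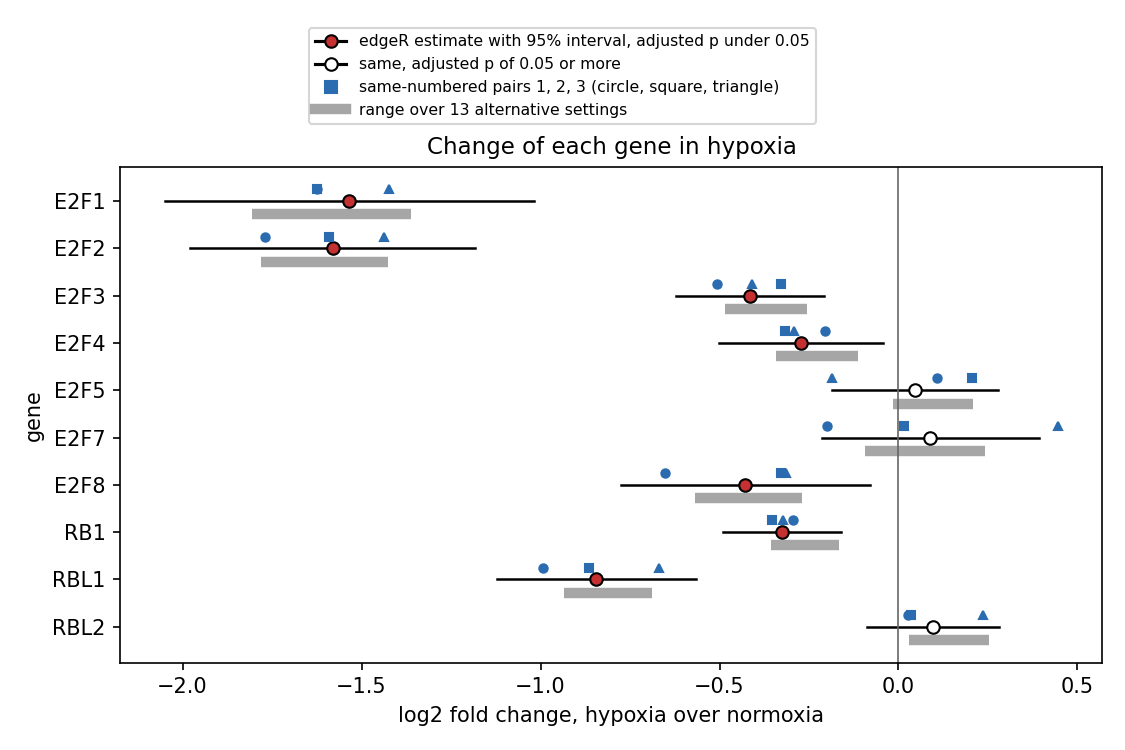
Log2 fold change of each gene, hypoxia over normoxia, with the edgeR estimate and its 95% interval (filled where the adjusted p is under 0.05), the 3 same-numbered pairs as blue symbols and the range over 13 alternative settings as a grey bar. E2F1 and E2F2 sit near -1.5, RBL1 at -0.84, and the intervals of E2F5, E2F7 and RBL2 span 0.

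Because the genes fell unequally, the make-up of each group of transcripts differed between the conditions. Levels of different genes were compared as CPM per kilobase of counted exon. In normoxia E2F1 (52.3 ± 10.96, SD, n = 3) and E2F4 (42.1 ± 3.90) were the highest, and their ranges overlapped. E2F5 (24.6 ± 0.675) came next without overlap, followed by RBL2 (21.5 ± 1.66) and RB1 (19.8 ± 0.703), which overlapped. RBL1, E2F3, E2F2, E2F7 and E2F8 followed, with means of 9.81, 9.16, 8.25, 6.40 and 6.39, and each overlapped its neighbour in this order.

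In hypoxia E2F4 (34.9 ± 3.01 CPM per kilobase) was the highest with no overlap. E2F5 (25.5 ± 2.95), RBL2 (23.0 ± 0.333), E2F1 (18.0 ± 5.32) and RB1 (15.8 ± 0.508) followed, each overlapping the next. E2F3 and E2F7, at 6.87 and 6.80, overlapped, as did RBL1 and E2F8, at 5.46 and 4.74. E2F2 (2.74 ± 0.592) was the lowest, with no overlap. The summed level of the 3 activators was 66.8, 58.8 and 83.6 CPM per kilobase in the normoxia replicates and 24.9, 23.1 and 34.8 in the hypoxia replicates. The sum of E2F4 and E2F5 was 66.8 ± 4.36 in normoxia and 60.4 ± 0.884 in hypoxia (SD, n = 3), so the activators were about level with these repressors in normoxia and below them in every hypoxia library.

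Of the summed mRNA of the 7 E2F genes, E2F1 made up 33.6%, 32.4% and 38.4% in normoxia and 16.4%, 15.1% and 22.2% in hypoxia. E2F4 went from 28.3% ± 1.34 to 35.0% ± 0.551 and E2F5 from 16.6% ± 1.48 to 25.8% ± 4.85 (SD, n = 3), while E2F7 went from 4.34% ± 0.823 to 6.81% ± 0.379. The share of E2F2 was 5.52% ± 0.353 in normoxia and 2.74% ± 0.363 in hypoxia. A larger share of a smaller total is not a larger amount, since neither E2F4 nor E2F5 nor E2F7 rose.

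Among the 3 pocket proteins, RBL2 made up 41.6%, 43.7% and 40.8% of the summed mRNA in normoxia and 50.8%, 52.7% and 52.2% in hypoxia. The share of RBL1 went from 21.1%, 16.9% and 19.5% to 12.7%, 10.95% and 13.3%, and that of RB1 from 38.8% ± 1.31 to 35.8% ± 1.09 (SD, n = 3). The ratio of RBL2 to RBL1 per kilobase was 1.97, 2.58 and 2.09 in the normoxia replicates and 3.996, 4.81 and 3.92 in the hypoxia replicates. Over the 10 shares, exact two-sided permutation tests gave p = 0.1 for all but E2F8 (p = 0.3), with Benjamini-Hochberg adjusted values of 0.111 and 0.3. The 5 ratios computed gave an exact permutation p of 0.1 in 4 and 0.7 in 1 (adjusted 0.125 and 0.7). With 3 libraries against 3, 0.1 is the smallest p possible, so none could pass 0.05.

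**Figure D4:**
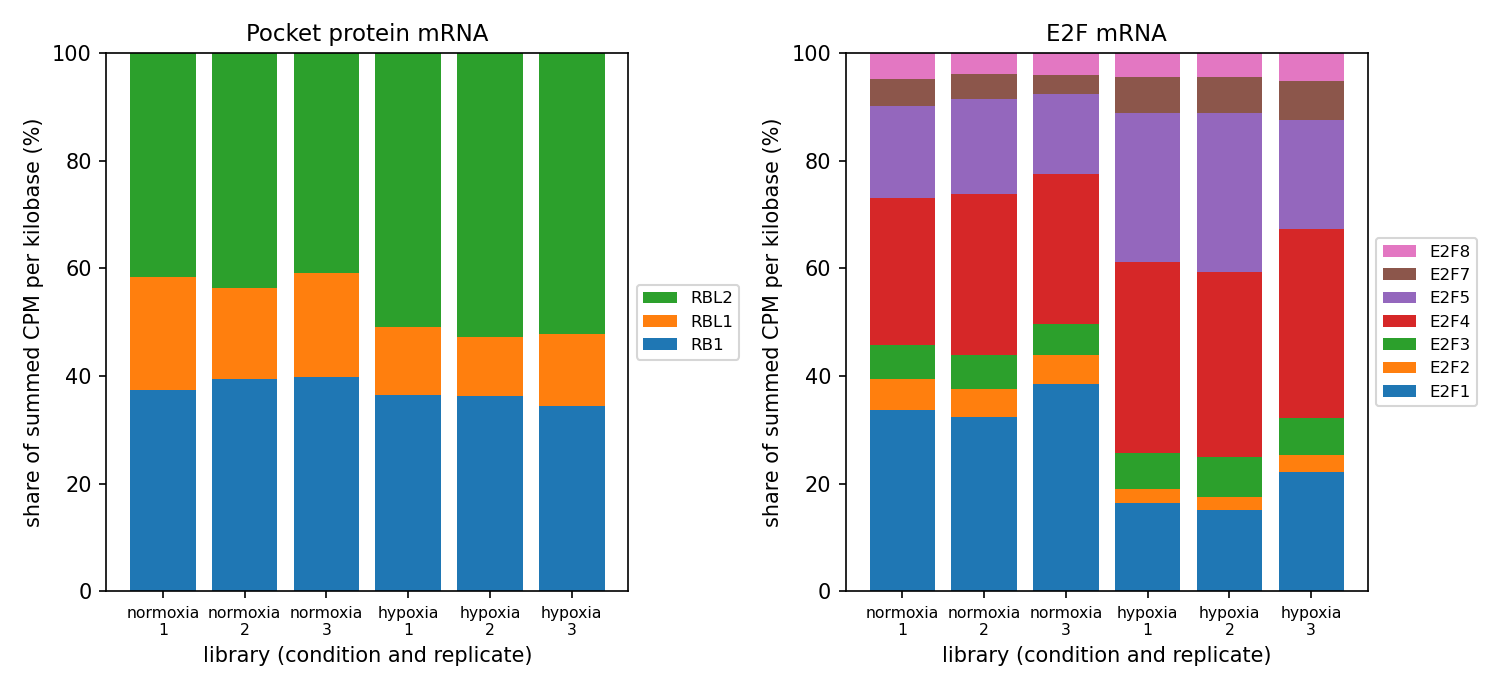
Share of each gene in the summed CPM per kilobase of the 3 pocket proteins (left) and of the 7 E2F genes (right), with 1 stacked bar per library, in percent. RBL2 takes over 50% of pocket protein mRNA in each hypoxia library, and the E2F1 segment is smaller in each hypoxia library than in any normoxia library.

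For each gene, the tested genes with the most similar profile were found over the 6 libraries, as the smallest root mean square difference of centred log2 CPM among 12664 genes. E2F1 lay closest to SLC27A4 (0.0468), POLR2L (0.0497) and PCNA (0.0515), the last a sliding clamp of DNA replication. E2F2 lay closest to MCM6 (0.0417), a subunit of the replicative helicase, and then to RIOX1 (0.0771) and COQ3 (0.0773). The other genes had as nearest profile KDM1B for E2F3, LRRC61 for E2F4, ZYG11B for E2F5, TMEM121 for E2F7, CLN6 for E2F8, SKP1 for RB1, PCDHB13 for RBL1 and DDOST for RBL2. Among the 10 genes themselves the closest pairs were E2F3 with E2F4 (0.0967), E2F1 with E2F2 (0.106) and E2F3 with E2F8 (0.109). With 6 libraries in 2 conditions, such profiles mostly carry the size of the change.

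The partners of the E2Fs in DNA binding and the other DREAM subunits also tended to fall. Of 12 listed genes, 11 were tested, 6 fell, and 0 rose by edgeR's quasi-likelihood test, with 1 higher at an unadjusted p under 0.05 and 0 by edgeR's exact test and DESeq2. Their median log2 fold change was -0.56. By the same quasi-likelihood test 29.1% of all tested genes fell and 30.4% rose. TFDP1, the main dimerization partner, fell from 204 ± 21.7 to 112 ± 19.1 CPM (SD, n = 3), or by 0.87 on the log2 scale. E2F6, a repressor without a pocket protein binding domain, fell by 0.88 on the log2 scale. The MuvB subunits LIN9, LIN52 and RBBP4 fell by 0.56, 1.05 and 0.55, whereas LIN37 (0.23) and LIN54 (-0.03) did not pass the test.

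FOXM1, which takes over at the same promoters in G2 phase, fell from 212 ± 25.2 to 91.1 ± 27.8 CPM (SD, n = 3), with a log2 fold change of -1.21. MYBL2, which replaces the pocket proteins on MuvB in dividing cells, had a log2 fold change of -0.60 and an adjusted p of 0.0513 by edgeR. With the replicate block it fell, with an adjusted p of 0.000497, as did MYBL1 (log2 fold change -0.27), and TFDP2 rose by 0.17. TFDP3 had 0 counts in all libraries and could not be tested.

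The kinases and inhibitors that set the phosphorylation of the pocket proteins moved in both directions. Of 16 listed genes 14 were tested, 7 fell and 5 rose, beside 29.1% and 30.4% of all tested genes. The median log2 fold change of the 14 was -0.47. CCNE1, CDK2 and CDK4, which drive pocket protein phosphorylation, had log2 fold changes of -1.05, -0.96 and -0.50. CDKN1A (p21), an inhibitor of CDK2, rose from 23.5 ± 2.16 to 147 ± 20.0 CPM (SD, n = 3), with a log2 fold change of 2.65 ± 0.12 (SE, adjusted p = 2.06e-05 by edgeR). CDKN2B (p15), an inhibitor of CDK4 and CDK6, rose by 0.95, from 5.49 ± 0.821 to 10.6 ± 0.534 CPM. CDKN2C (p18), another inhibitor of CDK4 and CDK6, fell, with a log2 fold change of -0.57 (adjusted p = 0.0220 by edgeR). With the replicate block 8 genes fell and 6 rose, adding CDKN2D to the former and CDKN2A to the latter. The block called 35.2% of all tested genes lower and 36.6% higher. CDK6 itself rose by 2.20, although from a low level of 1.54 ± 0.523 CPM to 7.15 ± 0.529 CPM.

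Corepressors that pocket proteins recruit were mixed, with 6 of 17 lower and 2 higher, beside 29.1% and 30.4% of all tested genes. Their median log2 fold change was -0.05. RBBP7, a histone-binding subunit, went from 602 ± 30.4 to 311 ± 45.2 CPM (SD, n = 3), and SUV39H1 and DNMT1, which methylate histone H3 and DNA, had log2 fold changes of -1.07 and -0.94. SIN3B, the scaffold of a histone deacetylase complex, rose by 0.49, and KMT5B, a histone H4 methyltransferase, rose by 0.27. With the replicate block 5 of the 17 corepressors rose, adding KMT5C, ARID4A and ARID4B, where 36.6% of all tested genes rose. The number of corepressors that rose was 1 without normoxia replicate 1, 4 without hypoxia replicate 3 and 4 without both libraries numbered 3.

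Of 6 genes for the turnover of E2F proteins, 4 fell and 1 rose, beside 29.1% and 30.4% of all tested genes. Their median log2 fold change was -0.61. SKP2, the ubiquitin ligase subunit that recognizes E2F1, and CCNA2, the cyclin that guides CDK2 to the activators, had log2 fold changes of -0.53 and -0.92. CDC20, an activator of the anaphase-promoting complex, had -1.12. USP11, a deubiquitinase, rose by 0.52, from 43.9 ± 3.84 to 63.0 ± 3.97 CPM (SD, n = 3).

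The E2F targets of the G1/S transition mostly fell. Of 39 listed G1/S targets 36 fell, 22 of them by at least 1 on the log2 scale, and the median log2 fold change was -1.06. Of all tested genes 29.1% fell, and 4.91% fell by at least 1. By edgeR's quasi-likelihood test 0 of the 39 rose, against 30.4% of all tested genes. The number that rose was also 0 by edgeR's exact test, by DESeq2 and at an unadjusted p under 0.05. TYMS, the thymidylate synthase, went from 92.7 ± 6.09 to 34.6 ± 5.10 CPM (SD, n = 3), and UHRF1, a factor of maintenance methylation, from 115 ± 10.2 to 33.9 ± 7.15 CPM. CHAF1B, a histone chaperone subunit, had a log2 fold change of -1.22. CDT1, TK1 and EZH2 did not pass the test, and the block brought CDT1 and TK1 past it (adjusted p = 0.00828 and 8.76e-05 by edgeR). An E2F word was present in the windows of 19 of the 32 G1/S targets that had one (59.4%), beside the 3.87% of all genes, tested or not, given above. This list was written from general knowledge and shares CCNE1, CCNE2, DNMT1 and EZH2 with the lists before it.

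Of 30 listed G2/M targets of DREAM 28 fell, with a median log2 fold change of -0.85, and 9 of them fell by at least 1. These counts stand beside 29.1% of all tested genes that fell and 4.91% that fell by at least 1. AURKA and ECT2, needed for mitosis and cytokinesis, had log2 fold changes of -1.35 and -1.17, and CENPE, a kinetochore motor, had -0.85. CDK1 and NUSAP1 did not pass the test, and CDK1 passed it with the block (adjusted p = 0.0129 by edgeR). The CHR word was present in 17 of the 25 G2/M targets with a window (68.0%), and in 16.7% of all genes with one. The G2/M list shares CCNA2 and CDC20, which both fell, with the list for the turnover of E2F proteins.

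The apoptosis genes that E2F1 is known to activate went both ways: 6 of 12 rose, 4 fell, and the median log2 fold change was 0.19. TP73 and BID had log2 fold changes of -0.61 and -0.74. PMAIP1 (NOXA) and BBC3 (PUMA), which also respond to other stress regulators, rose from 2.58 ± 0.444 to 10.6 ± 0.582 CPM and from 3.91 ± 0.938 to 14.5 ± 0.672 CPM (SD, n = 3). APAF1, the core of the apoptosome, rose by 0.76. All lists were counted with the same fit as the 10 genes, in which 29.1% of tested genes fell and 30.4% rose.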

How the data were processed

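RNA of T47D cells was sequenced as stranded mRNA libraries. The deposited values are raw counts per RefSeq gene, which the authors made by trimming with Skewer, aligning to GRCh37 (hg19) and counting exons. The submitters' processing notes name FastQC 0.11.5, STAR 2.5.2a and featureCounts 1.5.1. The strand setting and the handling of reads with several matches are not given in the sources used here, and counts of overlapping genes on opposite strands are therefore uncertain. Groups and replicate numbers came from the labels.

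The software was edgeR 4.0.16, DESeq2 1.42.0 and limma 3.58.1 in R 4.3.3, with plots from matplotlib 3.10.9 under Python 3.11.15. A gene was tested if it passed filterByExpr (min.count 10, min.total.count 15). The quasi-likelihood test of edgeR was run on all 6 libraries with TMM factors and condition as its single term, and p-values were adjusted by Benjamini-Hochberg over 15657 genes with a threshold of 0.05. The study's methods name the exact test, which was an alternative here. SEs are the log2 fold change divided by the square root of F, and intervals are at 95%. The fit was tested on simulated data. CPM per kilobase divides by the counted exon length in the files.

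Deviations from the condition means were shared by libraries of equal replicate number (correlations across genes of 0.338, 0.422 and 0.575 for numbers 1, 2 and 3), and the study's methods call the samples paired. With the block, the common biological coefficient of variation was 0.0751, and 0.141 without it.

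The 10 genes and the gene lists were chosen with earlier results of these data known. Named besides the 10 genes were all tested E2F partners and DREAM subunits, up to 3 genes a direction of each other list with the smallest p and a mean of at least 100 counts, the genes nearest in profile (pseudocount of 0.5 CPM), and genes overlapping their exons. Of the genes this rule names, 1 is not reported here. VIM, PTPRC, MS4A1, CA9, TFF1, CDKN2C, the members of a list that missed the test and those that only the block called were named after their values were seen. Promoter windows more than 10000 bases from the RefSeq gene start were not used. Promoters of E2F5, E2F8 and RB1 were not analysed here.

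Alternatives were edgeR's exact test, DESeq2's test and size factors, upper-quartile factors, no filter on low counts, the replicate block, each library left out and both libraries numbered 3 left out.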

Additional observations from a re-analysis of the deposited data

How the results depend on the processing

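E2F1, E2F2, E2F3 and RBL1 kept their direction and call under all 13 alternatives, with log2 fold changes of -1.81 to -1.36, -1.78 to -1.42, -0.48 to -0.26 and -0.93 to -0.69. Upper-quartile factors left 4 of the 10 genes lower and 1 higher (RBL2, adjusted p = 0.0426 by edgeR). Under them E2F4, E2F8 and RB1 had log2 fold changes of -0.11, -0.27 and -0.17, and RB1 lost its call under this alternative alone, with a range of -0.36 to -0.17 over all 13. The cause of these losses was not tested beyond the shift of the median of all genes. Leaving out 1 library left 5 or 7 genes lower. With 1 library left out, E2F5 ranged from -0.015 (without hypoxia replicate 2) to 0.14 and E2F7 from -0.034 (without hypoxia replicate 3) to 0.19, and E2F7 was at -0.094 without both libraries numbered 3. None of these values passed the test. With the replicate block the E2F partners and DREAM subunits had 1 higher gene and the corepressors 5, and the block changed no call among the 10 genes. The partners and subunits had 2 higher genes with upper-quartile factors, 0 to 1 when 1 library was left out and 1 without both libraries numbered 3. The corepressors had 1 to 4 higher when 1 library was left out and 4 without both. Without division by length, the difference in share of E2F mRNA, hypoxia minus normoxia, was -4.89 percentage points for E2F2, 1.77 for E2F3, 5.40 for E2F7 and 0.849 for E2F8, in place of -2.78, 0.756, 2.48 and 0.463. E2F4 and E2F8 lost their calls in 5 of the 13 alternatives each.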
